A study of Homo sapiens with 16 samples.

Results

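The APOBEC3 family of cytidine deaminases comprises 7 neighbouring human genes, APOBEC3A, APOBEC3B, APOBEC3C, APOBEC3D, APOBEC3F, APOBEC3G and APOBEC3H, and all 7 were taken by name from the 60605 gene identifiers in the tables. The family was chosen by the batch 1 fold change of APOBEC3H after irradiation, which stood out in earlier results of these data. The batch 1 response to radiation is therefore given as a description without a test, and the tests come from batch 2. PRO-seq, a run-on method that counts RNA polymerases engaged on each gene, was applied to LNCaP, an established line of human prostate cancer cells, with no genetic modification named in the labels. In batch 1, mock cells were compared with cells given 6 Gy of ionizing radiation (IR). In batch 2, cells received the DMSO vehicle or 10 µM enzalutamide, an androgen receptor antagonist, for 90 min. The irradiated dishes of batch 2 received 6 Gy after 30 min of this treatment and were collected 60 min later. Each of the 6 groups had 2 replicates, numbered 1 and 2 in batch 1 and 3 and 4 in batch 2. Each batch 1 replicate had a t1 and a t2 library, whose meaning and timing the labels do not give, and these were summed unless stated. The labels do not say that replicates were separate cultures, so p-values measure only the spread between these samples.

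APOBEC3 enzymes convert cytosine to uracil in single-stranded DNA. They restrict retroviruses and retrotransposons, several of them are induced by interferon in immune cells, and APOBEC3A and APOBEC3B are linked to clustered C-to-T mutations in tumours. Uracil in DNA is removed by UNG, and the abasic site left behind is repaired or bypassed.

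The genes lie side by side on the long arm of chromosome 22, all on the same strand, between positions 38957609 and 39104067 of GRCh38 (146.5 kb), in the order A, B, C, D, F, G, H. APOBEC3H (ENSG00000100298) is the last of them, at chr22:39097244-39104067. Of the 7 members, 1 has a promoter sequence in the RefSeq table used here. It is printed because APOBEC3H carries the main result. The window is chr22:39096994-39097293 on the + strand (RefSeq, GRCh38.p14), 300 bases with the annotated start site at base 251, and the capitals mark both copies of a 23-base direct repeat.

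APOBEC3H promoter: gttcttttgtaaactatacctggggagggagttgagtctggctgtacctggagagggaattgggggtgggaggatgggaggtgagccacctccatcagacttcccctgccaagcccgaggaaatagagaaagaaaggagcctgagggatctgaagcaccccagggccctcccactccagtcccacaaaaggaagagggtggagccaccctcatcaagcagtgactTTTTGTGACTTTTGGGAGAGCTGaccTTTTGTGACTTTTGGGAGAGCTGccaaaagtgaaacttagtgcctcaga

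The copies lie at bases 226 to 248 and 252 to 274, so that the start site falls between them. An exact direct repeat of at least 23 bases occurred in 460 of 35116 windows of this length (1.31%). Several motifs were searched on both strands. The p53 half-site, searched by its consensus, had 0 matches in the APOBEC3H window and was present in 6.6% of all windows. The interferon-stimulated response element, searched by its core consensus, had 0 matches (3.6% of windows), the cell cycle element TTTGAA had 0 (15.2%) and TATAAA had 0 (11.5%). These counts describe the letters of this window only.

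Libraries of batch 1 held 3438642 to 9363458 counts and those of batch 2 held 10494563 to 19905824. The 8 prostate luminal and LNCaP markers summed to 2290 to 3080 CPM (counts relative to the library size) in every sample, against 3 to 5.92 CPM for 8 leukocyte markers, 8.11 to 12.7 CPM for 3 fibroblast markers and 2.86 to 6.49 CPM for 2 endothelial markers. No marker was at 0 in all samples. In a bulk assay, fewer cells transcribing a gene and less transcription per cell cannot be told apart.

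APOBEC3H, a deaminase with a single catalytic domain that restricts HIV, was the 1 member that passed the test for IR in batch 2. In batch 1 its level was 0.25 and 1.10 CPM in the mock replicates and 6.63 and 6.89 CPM in the irradiated ones. The irradiated samples were both far above the mock samples, and their own spread was small. By library, the mock counts were 0, 2, 6 and 4, and the irradiated counts were 47, 37, 49 and 66. A count of 0 in the shallowest mock library allows up to 3 counts, or 0.872 CPM of its total. The fitted log2 fold change, by which the family was chosen and which is a description only, was 3.25 (SE 0.385), a fold of 9.54. Without mock replicate 2 it was 4.70, and without mock replicate 1 it was 2.61.

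**Figure D1:**
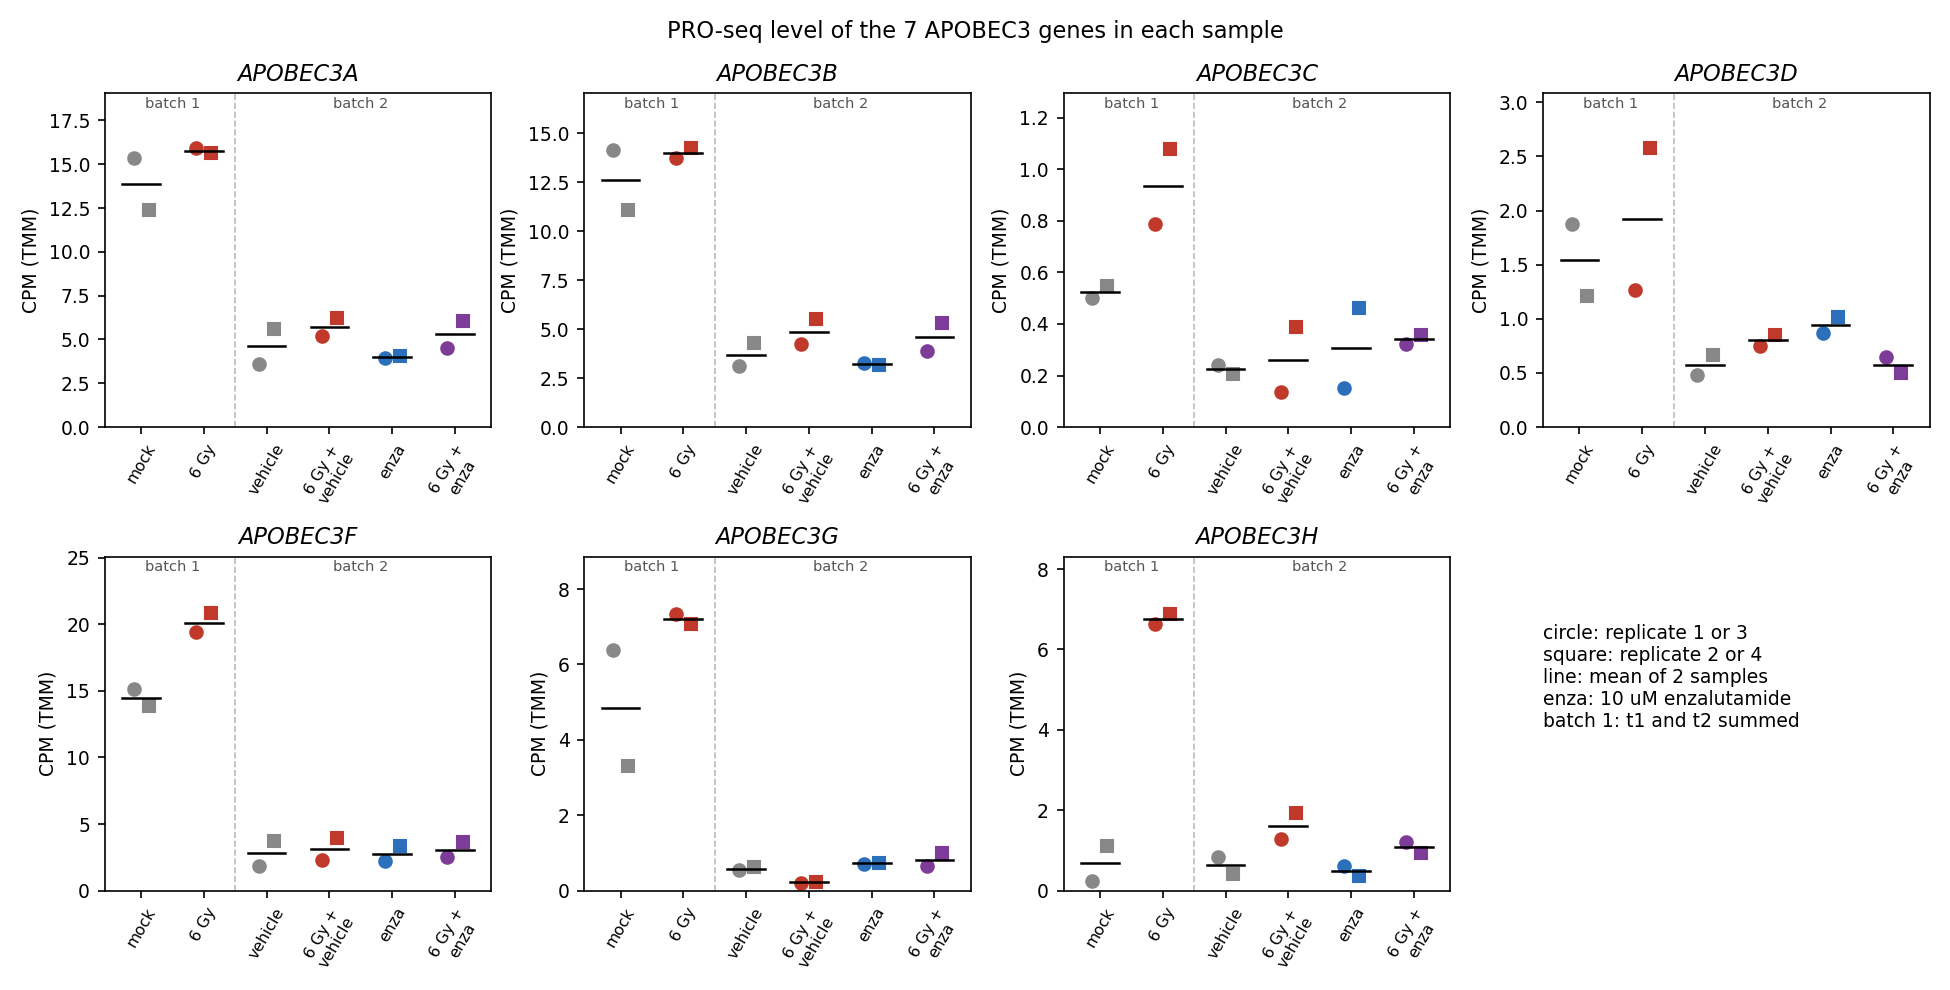
Level of each APOBEC3 gene (TMM-scaled CPM, vertical axis from 0, its own scale in each panel) in each sample of the 6 groups, with a line at the mean of 2 samples. APOBEC3H stood at 6.63 and 6.89 CPM after 6 Gy in batch 1 against 0.25 and 1.10 CPM in mock, and 6 of the 7 genes were higher in batch 1 mock than in batch 2 vehicle samples.

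In batch 2, APOBEC3H was at 0.843 and 0.412 CPM with vehicle and at 1.295 and 1.94 CPM after IR with vehicle. With enzalutamide it was at 0.611 and 0.371 CPM, and at 1.215 and 0.929 CPM after IR with enzalutamide. All 4 irradiated samples were above all 4 unirradiated ones. Averaged over the drug, APOBEC3H rose after IR by a log2 fold change of 1.22 (SE 0.309, 95% interval 0.56 to 1.89), a fold of 2.34, with an edgeR adjusted p of 0.038. Of all genes tested, 6.84% were higher after IR with no overlap between these groups. The counts behind this result were 4 to 14 per unirradiated library and 13 to 25 per irradiated one. In both batches APOBEC3H passed the count filter only through its irradiated samples, where it was high. Without the filter its edgeR adjusted p in batch 2 was 0.00224. The call was lost with total-count scaling (edgeR adjusted p 0.0507) and when any of 7 of the 8 samples was left out (adjusted p up to 0.125, log2 fold change 0.98 to 1.41). It was kept without enzalutamide replicate 3, the only such case among the left-out samples. The call was also kept with a term for the replicate number (the replicate block), which pairs same-numbered samples. DESeq2 gave 1.26 (SE 0.45) with an unadjusted p of 0.00524 and no adjusted p at this depth.

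Within each arm of batch 2 the response of APOBEC3H did not pass after adjustment over all genes. In vehicle cells the log2 fold change was 1.37 (SE 0.425, edgeR p 0.00668, adjusted p 0.228). In enzalutamide cells it was 1.02 (SE 0.491, edgeR p 0.058, adjusted p 0.545). The interaction, which tests whether the drug altered the radiation response, was -0.35 with a 95% interval of -1.79 to 1.09 (edgeR adjusted p 1), so differences of up to about that size in either direction were not resolved. The batch 1 log2 fold change of 3.25 stands beside 1.37 in vehicle cells of batch 2, and the difference between batches was not tested. The summed leukocyte markers were also higher after IR in batch 1 (5.21 to 5.92 CPM) than in mock (3 to 3.29 CPM), with ITGAM, the 1 of 8 with enough counts, at a log2 fold change of 1.46. In batch 2 the same markers summed to 3.95 to 5.27 CPM after IR with vehicle and 5.04 to 5.24 CPM with vehicle alone, and to 4.22 to 4.54 CPM after IR with enzalutamide and 4.02 to 5.84 CPM with enzalutamide alone. Their part in the APOBEC3H result was not tested.

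Across the family in batch 2, 6 of the 7 members had enough counts to be tested, and 1 of these 6, APOBEC3H, passed for IR averaged over enzalutamide, against 4.71% of all 28651 genes tested (2.8% higher). In vehicle cells 0 of 6 members passed with edgeR, against 1.1% of all genes. There 2 had an unadjusted p under 0.05, APOBEC3H and APOBEC3G, where 11% of all genes did. In enzalutamide cells 0 of 6 passed, against 0.918% of all genes, and 0 had an unadjusted p under 0.05, where 9.49% did. DESeq2 called 0 members in any of these 3 comparisons but gave no adjusted p for 4 to 7 of the 7. The median log2 fold change of the 6 members for the averaged comparison was 0.26, and that of all genes was -0.014.

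**Figure D2:**
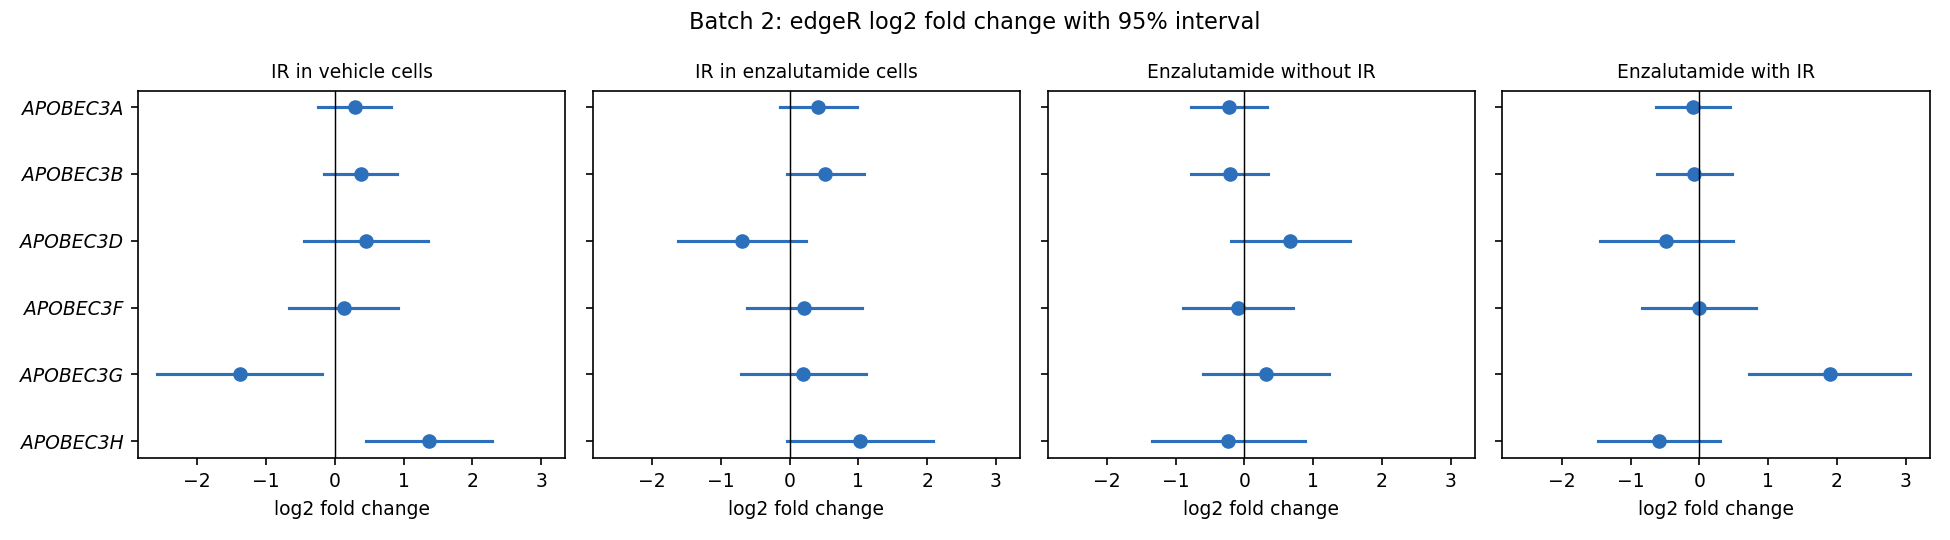
Log2 fold change (horizontal axis, point) with its 95% interval (line) for the 6 tested APOBEC3 genes in the 4 simple comparisons of batch 2. APOBEC3H lies at 1.37 and 1.02 for IR in the first panels, and APOBEC3G lies at -1.38 for IR in vehicle cells and at 1.9 for enzalutamide with IR.

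APOBEC3A (ENSG00000128383, RefSeq span chr22:38957609-38963184) and APOBEC3B (ENSG00000179750, RefSeq span chr22:38982347-38992779) are the members most often linked to tumour mutation. In vehicle samples of batch 2 APOBEC3A was at 3.61 and 5.61 CPM, and after IR with vehicle at 5.18 and 6.21 CPM. With enzalutamide it was at 3.92 and 4.08 CPM, and after IR with enzalutamide at 4.54 and 6.08 CPM. The irradiated and unirradiated samples overlapped as groups, but within each same-numbered pair the irradiated sample was the higher. Averaged over the drug, the log2 fold change after IR was 0.35 (SE 0.167, edgeR adjusted p 0.242).

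APOBEC3B was at 3.13 and 4.27 CPM with vehicle and at 4.23 and 5.51 CPM after IR with vehicle. It was at 3.26 and 3.15 CPM with enzalutamide and at 3.89 and 5.29 CPM after IR with enzalutamide. The averaged change was 0.45 on the log2 scale (SE 0.169, 95% interval 0.08 to 0.81), with an edgeR adjusted p of 0.144 (0.05, not under the threshold, with the replicate block) and overlapping groups. Counted by pair, 4 of the 6 tested members (APOBEC3A, APOBEC3B, APOBEC3F and APOBEC3H) were higher after IR in 4 of 4 same-numbered pairs, as were 17% of all genes. APOBEC3A and APOBEC3B had nearly parallel counts, described below, so they may not be separate observations in this count. In batch 1 APOBEC3A was at 15.4 and 12.4 CPM in mock and at 15.9 and 15.6 CPM after IR, and APOBEC3B at 14.1 and 11.1 CPM and at 13.7 and 14.2 CPM. Their log2 fold changes were 0.19 and 0.16, against SEs of 0.155 and 0.164.

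The counts of APOBEC3A and APOBEC3B ran almost in parallel. APOBEC3A was above APOBEC3B in 16 of 16 libraries, by 4 to 26 counts, and APOBEC3B had 76.1% to 94.4% of the APOBEC3A count. Summed over libraries the counts were 1286 and 1114 (86.6%). The Pearson r of their log2 shares of the library was 0.997 (n = 16 libraries, which share depth and batch), given as a description. The RefSeq spans of these close paralogs do not overlap. The counts are per Ensembl gene, however, and whether the counted Ensembl spans of this pair overlap was not checked. How reads shared between genes, transcripts or paralogs were counted is also not given in the sources used here. The values of both are therefore uncertain.

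**Figure D3:**
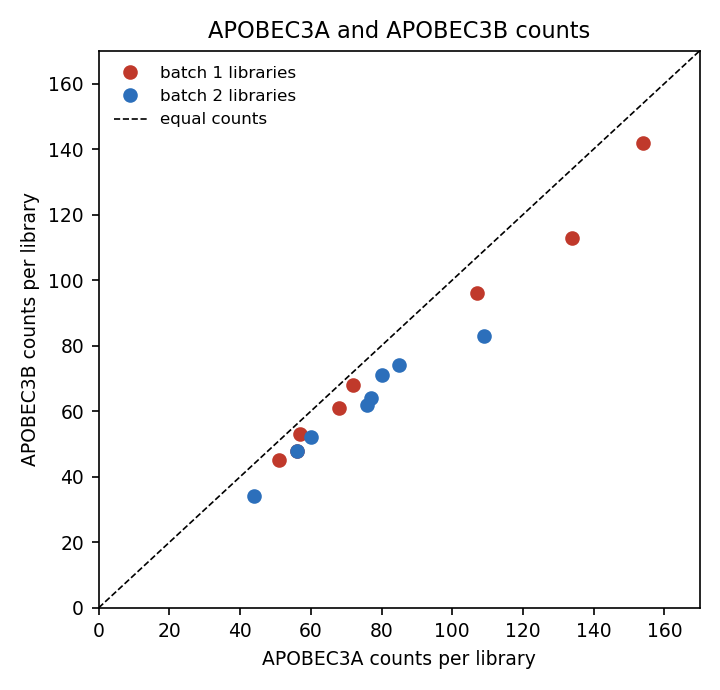
Counts of APOBEC3B against counts of APOBEC3A, one point per library (16 libraries, coloured by batch), with a dashed line at equal counts. All 16 points lie just under the line, at 76.1% to 94.4% of the APOBEC3A count.

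APOBEC3F (ENSG00000128394, chr22:39040864-39055972) and APOBEC3G (ENSG00000239713, chr22:39077005-39087743) are antiviral members with a pair of deaminase domains that HIV counters with its Vif protein. APOBEC3F was at 1.87 and 3.76 CPM with vehicle, 2.32 and 3.96 CPM after IR with vehicle, 2.19 and 3.34 CPM with enzalutamide and 2.51 and 3.65 CPM after IR with enzalutamide. These groups overlapped, and the averaged log2 fold change after IR was 0.17 (SE 0.253, edgeR adjusted p 0.744). In batch 1 APOBEC3F was at 15.1 and 13.8 CPM in mock and at 19.4 and 20.8 CPM after IR, a log2 fold change of 0.48 (SE 0.14). The groups did not overlap, and 20.3% of all genes were higher after IR in this way.

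APOBEC3G was low in batch 2 and passed the count filter there only through enzalutamide samples, where it was higher. It was at 0.542 and 0.618 CPM with vehicle and at 0.204 and 0.233 CPM after IR with vehicle, where each library held 3 counts. With enzalutamide it was at 0.712 and 0.742 CPM, and after IR with enzalutamide at 0.648 and 1.00 CPM. The IR with vehicle samples were thus the lowest of the 4 groups, and 22.8% of all genes were lower after IR with vehicle without overlap. In vehicle cells the log2 fold change after IR was -1.38 (SE 0.554, edgeR p 0.0268, adjusted p 0.375), and in enzalutamide cells it was 0.20 (SE 0.42, adjusted p 0.92). The interaction was 1.59 (SE 0.70, edgeR p 0.0414, adjusted p 1).

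In batch 1 the order for APOBEC3G was the other way round. Mock samples were at 6.38 and 3.29 CPM and irradiated samples at 7.34 and 7.07 CPM, a log2 fold change of 0.59 (SE 0.266). The t libraries did not give the same direction. In t1 libraries the mock values were 4.52 and 2.28 CPM and the irradiated values 8.62 and 12.9 CPM, a log2 fold change of 1.77 (SE 0.347). In t2 libraries the mock values were 7.57 and 4.91 CPM and the irradiated values 5.22 and 2.32 CPM, a log2 fold change of -0.89 (SE 0.385).

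The other members were compared between the t libraries in the same way. APOBEC3H had 3.16 in t1 and 3.35 in t2 libraries, so it was higher after IR in each. APOBEC3F had 0.63 and 0.33. APOBEC3A had 0.57 in t1 and -0.25 in t2, and APOBEC3B had 0.54 and -0.26, so these changed sign with the library. APOBEC3D, with too few counts in t2, had 0.80 in t1. In the summed samples 4 of the 6 tested members, APOBEC3A, APOBEC3F, APOBEC3G and APOBEC3H, were higher after IR with no overlap, where 20.3% of all genes were. In the t2 libraries 2 of 5 tested members were, APOBEC3F and APOBEC3H, where 36.5% of all genes were. Without mock replicate 1, which leaves 1 mock sample, all 7 were, APOBEC3C then being tested too, where 36% of all genes were.

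**Figure D4:**
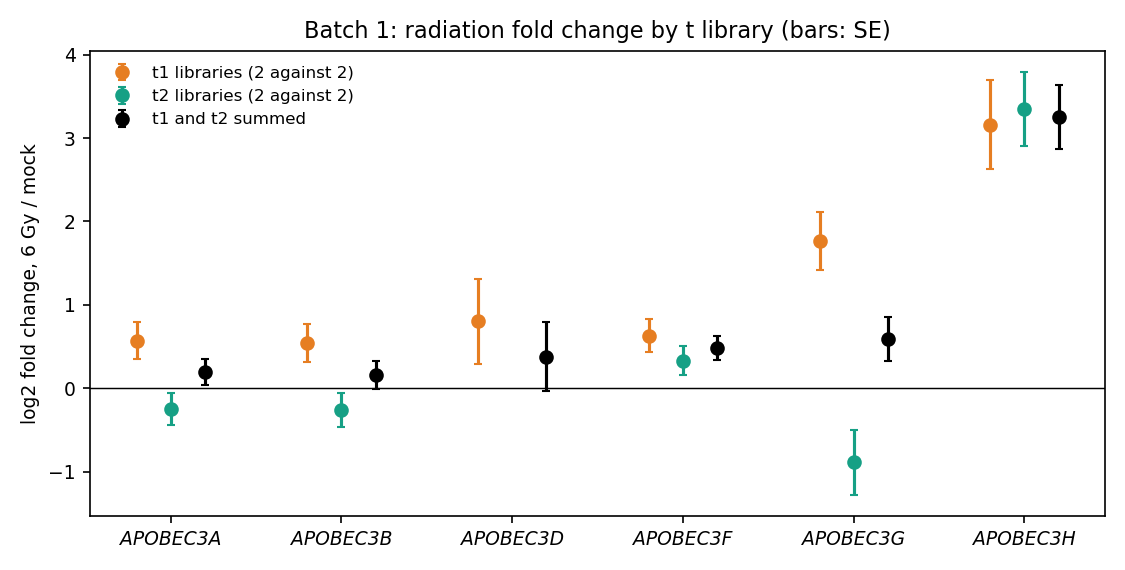
Batch 1 log2 fold change after 6 Gy (vertical axis, bars are SE) for the 6 tested APOBEC3 genes, from the t1 libraries, the t2 libraries and their sum. APOBEC3H lies at 3.16, 3.35 and 3.25, whereas APOBEC3G lies at 1.77, -0.89 and 0.59.

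APOBEC3D (ENSG00000243811, chr22:39021127-39033277), another member with a pair of deaminase domains, had 7 to 17 counts per library in batch 2. It was at 0.482 and 0.669 CPM with vehicle, 0.750 and 0.853 CPM after IR with vehicle, 0.865 and 1.02 CPM with enzalutamide and 0.648 and 0.50 CPM after IR with enzalutamide. IR samples were above the unirradiated ones with vehicle, as were those of 21.8% of all genes, and below them with enzalutamide, as were those of 19.5%. The log2 fold changes were 0.45 (SE 0.419) and -0.69 (SE 0.43), with edgeR adjusted p-values of 0.713 and 0.656, and the interaction was -1.14 (SE 0.601, edgeR p 0.0796, adjusted p 1). In batch 1 it was at 1.88 and 1.21 CPM in mock and 1.26 and 2.58 CPM after IR, with overlap.

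APOBEC3C (ENSG00000244509, chr22:39014257-39020352), a single-domain member known to act on retrotransposons, had too few counts to pass the edgeR filter with all samples in either batch. It held 2 to 18 counts per summed sample or library. Its means in batch 1 were 0.524 ± 0.0345 CPM (SD, n = 2) in mock and 0.934 ± 0.204 CPM (SD, n = 2) after IR, without overlap. Of all genes tested there, 20.3% were higher after IR without overlap. In batch 2 its group means lay between 0.223 and 0.341 CPM. For IR averaged over enzalutamide DESeq2, which had no such filter, gave 0.25 (SE 0.78, unadjusted p 0.75), so a response in batch 2 was not detectable at this depth.

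Enzalutamide gave 0 of 6 members past the edgeR threshold in any comparison. Averaged over IR, 0.0628% of all genes passed, and APOBEC3G, at 0.90 (SE 0.368, 95% interval 0.11 to 1.69), was the 1 member with an unadjusted p under 0.05 (0.0289, edgeR adjusted p 0.769), where 6.21% of all genes had one. All 4 of its enzalutamide samples were above all 4 without the drug, as were those of 1.35% of all genes. In batch 2 APOBEC3G passed the count filter only through enzalutamide samples, where it was higher, so its values here are not independent of the filter. With no filter its edgeR p for the average was 0.0147 (adjusted p 0.722). Without IR 0.0105% of all genes passed and 0 members had an unadjusted p under 0.05 (2.56% of all genes), with member log2 fold changes between -0.24 (APOBEC3H) and 0.66 (APOBEC3D). With IR 0.0105% of all genes passed and 1 member had an unadjusted p under 0.05 (3% of all genes), APOBEC3G (1.9, SE 0.543, edgeR p 0.00405, adjusted p 1), which rests on the 3 counts in each library irradiated with vehicle. This comparison and that of IR in vehicle cells share those samples. For the interaction 0% of all genes passed, 0 of 6 members did, and 1 member, APOBEC3G, had an unadjusted p under 0.05, where 1.2% of all genes did. DESeq2 called 0 members in these comparisons, with 1 unadjusted p under 0.05 in all, for APOBEC3G with IR, and gave no adjusted p for any of the 7 members without IR or for the average. APOBEC3H under enzalutamide was -0.45 in the average, with a 95% interval of -1.11 to 0.21.

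Levels of different members were compared per kb of RefSeq gene span, since longer genes collect more polymerases. Whether the authors counted over gene bodies or exons is not given, which limits this scale. The near-equal counts of APOBEC3A and APOBEC3B were divided by spans of 5.6 and 10.4 kb. The lead of APOBEC3A on this scale is therefore mostly the ratio of the spans, and the order of this pair is uncertain. If both genes counted the same reads, the RefSeq span is not the right divisor for APOBEC3A. Its level and its rank among the members are therefore uncertain too. In mock cells of batch 1 the order was APOBEC3A (2.49 ± 0.377 CPM per kb, SD, n = 2), APOBEC3B (1.21 ± 0.206), APOBEC3F (0.958 ± 0.0608), APOBEC3G (0.45 ± 0.203), APOBEC3D (0.127 ± 0.0388), APOBEC3H (0.0988 ± 0.0879) and APOBEC3C (0.086 ± 0.00566). The last 3 did not differ beyond their spread. After IR in batch 1 APOBEC3H stood at 0.99 ± 0.0267 CPM per kb, between APOBEC3F (1.33 ± 0.0669) and APOBEC3G (0.671 ± 0.0179).

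In vehicle cells of batch 2 the same scale gave APOBEC3A 0.827 ± 0.253, APOBEC3B 0.355 ± 0.0773, APOBEC3F 0.186 ± 0.0885 and APOBEC3H 0.0919 ± 0.0447 CPM per kb (SD, n = 2). APOBEC3G, APOBEC3D and APOBEC3C followed at 0.054, 0.0474 and 0.0366. After IR with vehicle APOBEC3H was at 0.237 ± 0.0667 and APOBEC3F at 0.208 ± 0.0767, within their spread of each other, and APOBEC3G was last at 0.0204 ± 0.00186. With enzalutamide APOBEC3D, APOBEC3H, APOBEC3G and APOBEC3C lay within their spread, at 0.0776, 0.0719, 0.0677 and 0.0505. After IR with enzalutamide APOBEC3H was at 0.157 ± 0.0296, within the spread of APOBEC3F at 0.204 ± 0.0531. APOBEC3A and APOBEC3B, whose order rests mostly on their spans, and then APOBEC3F or APOBEC3H led in all 4 groups. The rank of APOBEC3A is uncertain in each of them, as stated above.

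The batches differed in level as well. Scaled separately, 6 of the 7 members were higher in both mock samples of batch 1 than in both vehicle samples of batch 2, where 38% of all genes were higher and 39.7% lower without overlap. The ratio of mean CPM was 8.34 for APOBEC3G, 5.15 for APOBEC3F, 3.41 for APOBEC3B, 3.01 for APOBEC3A, 2.68 for APOBEC3D and 2.35 for APOBEC3C, and 13% of all genes had a ratio over 2. APOBEC3H was the exception, at 1.07 with overlapping samples. Within batch 2, replicate 4 was above replicate 3 in all 4 groups for APOBEC3A, APOBEC3F and APOBEC3G, as for 14.3% of all genes, and in 1 of 4 groups for APOBEC3H. Batch, the absence of a stated vehicle in batch 1 and collection cannot be told apart here.

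The genes around the cluster were compared with the members in the same fits. The 5 protein-coding genes on each side, from GTPBP1 to CBX6 and from CBX7 to TAB1, had log2 fold changes of -0.08 to 0.20 for IR averaged over enzalutamide, and 0 of 10 passed with edgeR (1 at an unadjusted p under 0.05). That one was RPL3, which encodes a ribosomal protein (0.20, edgeR adjusted p 0.0786, DESeq2 adjusted p 0.0272). CBX7, the next gene beyond APOBEC3H and a Polycomb subunit, had 0.01 (SE 0.0756, edgeR adjusted p 0.952). In batch 1 the 10 genes lay between -0.20 and 0.14. APOBEC3B-AS1, inside the cluster, had 3 to 21 counts per group and was not tested, and whether strand was used in counting is not given.

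**Figure D5:**
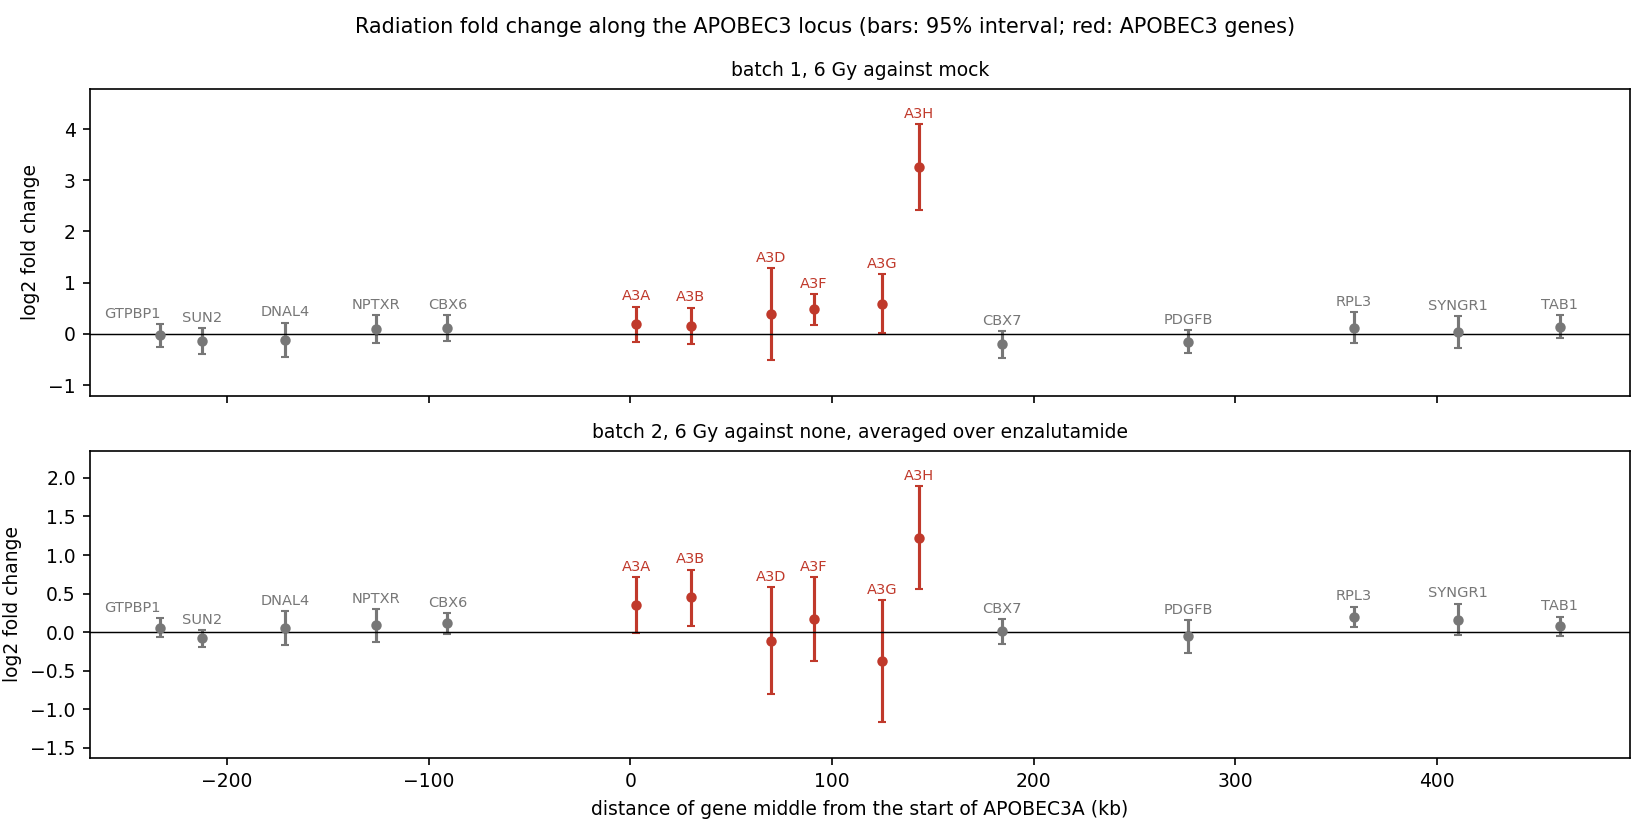
Log2 fold change after 6 Gy with its 95% interval (bars) for the tested APOBEC3 genes (red) and 5 protein-coding genes on each side (grey), by distance in kb from the start of APOBEC3A. The upper panel is batch 1 and the lower panel is batch 2 averaged over enzalutamide, on different vertical scales, with APOBEC3H at 3.25 and 1.22 and the neighbours between -0.20 and 0.20. The batch 1 value of APOBEC3H led to the choice of the family, so its interval there is no test.

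The relatives APOBEC1, APOBEC2 and APOBEC4, outside the cluster, had 3 to 22 counts per group, too few to be tested. Genes that handle uracil and abasic sites in DNA were compared next. Of 16 tested, 1 rose for IR averaged over enzalutamide and 0 fell, with a list median of 0.06. The riser was REV3L, the catalytic subunit of the translesion polymerase zeta (0.46, SE 0.0601, edgeR adjusted p 0.000331). UNG, the uracil glycosylase, had 0.19 (adjusted p 0.15) and POLB, the gap-filling polymerase of base excision repair, had 0.15 (adjusted p 0.241), neither past the edgeR threshold.

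Of 31 interferon-stimulated genes and restriction factors tested, 1 rose and 0 fell, with a median of 0. It was ISG20, an exonuclease (1.00, SE 0.0747, edgeR adjusted p 1.01e-06). IRF9 had 0.26 (adjusted p 0.0963) and ISG15 0.18 (adjusted p 0.143), both without passing in edgeR. Of 8 NF-kappa-B targets tested, 2 rose, RELB (0.69, edgeR adjusted p 0.0132) and NFKB2 (0.47, adjusted p 0.0409), and the median was 0.28. NFKBIA, the inhibitor, had 0.29 (edgeR adjusted p 0.0723).

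The p53 targets and the cell cycle genes showed the size of the radiation response in the same samples. Of 32 p53 targets 30 rose, with a median of 1.34, among them BTG2 (2.41), FDXR (2.86) and MDM2 (2.04), so the 1.22 of APOBEC3H lay just under that median. Of 30 DREAM and cell cycle targets 22 fell and 3 rose, with a median of -0.69, among them the helicase PIF1 (-1.97) and the mitotic genes AURKA (-1.19) and KIF20A (-1.36). The 3 that rose, named after their values were seen, were E2F1 (0.48), MYBL2 (0.36) and MCM5 (0.32). For enzalutamide averaged over IR, 0 genes of any of these 5 lists passed with edgeR, with 1 to 3 per list at an unadjusted p under 0.05, and DESeq2 called 1 p53 target, SESN2, a stress-induced metabolic regulator (0.26 and adjusted p 0.439 in edgeR).

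The genes whose pattern was most like each member were named from their Pearson r of log2 CPM over the 12 samples, centred by batch, as a description. For APOBEC3H these were ENSG00000261490 (0.97), ZNF33B (0.96) and LYPLA1 (0.96), which had 0.87, 0.84 and 0.89 over the 8 batch 2 samples alone. APOBEC3A and APOBEC3B were each the gene most like the other (0.97), followed by IMPDH1 for both (0.95 and 0.96). APOBEC3F was most like ZNF724 (0.96) and APOBEC3G like HOXB7 (0.89). The samples share group and depth. Of the members, only APOBEC3A and APOBEC3B averaged 50 or more counts per sample in both batches, as the compared genes had to. No other member could therefore be named as most alike, so likeness within the rest of the family was not examined.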

How the data were processed

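Raw PRO-seq counts per Ensembl gene were deposited by the authors, in 1 table for each batch. Per the submitters' processing notes the tools were cutadapt 1.8.1, Bowtie2 2.4.4 and SAMtools 1.9 with hg38. The counting tool, the annotation, and the handling of strand, duplicates and multiply mapped reads are not given in the sources used here. Of 60605 identifiers 60463 (99.8%) matched a name. Counts were analysed in R 4.3.3 with edgeR 4.0.16 (filterByExpr, TMM factors, glmQLFit and glmQLFTest, two-sided, Benjamini-Hochberg over all genes, threshold 0.05). All 8 batch 2 libraries entered 1 model. The averaged effects came from a model without the interaction, and DESeq2 1.42.0 was an alternative. CPM and log2 values were computed here from the deposited counts. Replicates differed beyond sampling noise (chi-square per degree of freedom 3.88 to 7.56). Same-numbered samples deviated together in all 6 pairs of batch 2 groups (r across genes 0.134 to 0.301; batch 1 0.22), so the shared numbers in the labels were taken to pair the samples; the reported fits have no replicate term, and the replicate block was an alternative. The fits were tested on simulated counts in which only genes averaging over 50 counts were changed. This does not cover the members with fewer counts. The members, the lists and the naming rule (all members and relatives, 5 coding neighbours each side, up to 3 genes per list by smallest p for IR averaged, and the 3 most alike genes averaging 50 or more counts per sample) were chosen with earlier results of these data known. Some results under this rule are not reported here.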

Additional observations from a re-analysis of the deposited data

Results flagged for a closer look

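For APOBEC3D the response to IR had opposite signs in both arms of batch 2, with each irradiated sample above the unirradiated ones with vehicle (log2 fold change 0.45) and below them with enzalutamide (-0.69), a difference of 1.14. The interaction tested it (edgeR p 0.0796, adjusted p 1) and did not pass.

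For APOBEC3G the response to IR had opposite signs in batch 1 (0.59) and in vehicle cells of batch 2 (-1.38), a difference of 1.97. In batch 1 the sign depended on the library, at 1.77 in the t1 and -0.89 in the t2 libraries, the latter the same sign as in batch 2. The difference between batches was not tested.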

How the results depend on the processing

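The rise of APOBEC3H for IR averaged over enzalutamide was the 1 call among the members. The count of 1 became 0 with total counts, and was 0 to 1 over the left-out samples. Its log2 fold change stayed between 0.98 and 1.41 under every edgeR alternative. Its edgeR adjusted p was 0.0353 with RLE factors, 0.00224 with no filter and 0.0092 (1.24, SE 0.311) with the replicate block. The replicate block changed no other call among the members: APOBEC3H then had an edgeR adjusted p of 0.061 in vehicle and 0.294 in enzalutamide cells, and APOBEC3B had 0.05 for the average, still not under the threshold. In batch 1 the count of members higher after IR without overlap was 4 in the summed samples, 4 to 7 over the left-out samples (of 6 or 7 tested, 7 without mock replicate 1, where 30.5% to 38.5% of all genes were) and 2 in the t2 libraries (of 5 tested, 36.5% of all genes), and the APOBEC3H log2 fold change was 2.61 to 4.70 over the left-out samples. The cause of these shifts was not tested.

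Over all genes the counts of calls moved by over 1.5 times with the replicate block and with no filter, and in batch 1 by more with the t libraries alone. For IR in vehicle cells 314 genes became 1315 with the block and 624 with no filter, for IR in enzalutamide cells 263 became 951 and 556, and for the average 1349 became 4307 and 2391. Enzalutamide went from 3 without IR to 55 and 74, from 3 with IR to 55 and 64, and from 18 in the average to 272 and 230 (56 with DESeq2). Batch 1 went from 731 to 2332 and 1157, to 3995 in t1 and to 9800 in t2 libraries, and to 1509 without mock replicate 2. With 3 to 25 counts per batch 2 library, APOBEC3D, APOBEC3G and APOBEC3H are limited by depth, and APOBEC3C did not pass the filter with all samples.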
